A study of Homo sapiens with 6 samples.

Results

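The 10 genes SNAI1, SNAI2, ZEB1, TWIST1, SOX9, SOX10, PAX3, TFAP2A, ETS1 and MSX2, transcription factors of the neural crest and of epithelial-mesenchymal transition (EMT), were followed in cells labelled A549 after knockdown of FOXD3. They were taken by gene symbol, whatever their level, out of 17789 symbols listed in at least 1 of the 6 RNA sequencing libraries. A549 is a line grown from a human lung adenocarcinoma. The 3 knockdown libraries came from cells given a pool of small interfering RNAs against FOXD3 with a lipid reagent, and knockdown was examined 72 h after transfection. The 3 control libraries are described as wild type, and the labels do not say whether the control wells received the lipid or a non-targeting RNA. Both groups are labelled as the same line and no other difference between them is given. Nothing in the labels says that the 3 libraries of a group came from separate cultures, and p-values here cover only library-to-library spread, which may be technical.

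Neural crest cells arise at the border of the neural plate, lose their epithelial contacts, migrate and give rise to melanocytes, peripheral neurons and glia, and much of the facial skeleton. Border genes such as PAX3, MSX2 and TFAP2A act upstream of crest specifiers such as FOXD3, SOX9, SOX10, SNAI2 and ETS1. The zinc finger repressors SNAI1, SNAI2 and ZEB1 and the basic helix-loop-helix factor TWIST1 also drive EMT in carcinomas, where they lower E-cadherin by acting on E-boxes in its promoter.

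ETS1 was the member with the largest change: it averaged 3.54 ± 0.288 FPKM in knockdown and 8.48 ± 0.154 FPKM in control libraries (SD, n = 3 each), 2.4-fold lower. FPKM is the fragment count per length of transcript, relative to all mapped fragments. In bulk RNA fewer cells of a type and less RNA per cell cannot be told apart. SOX9 was 1.17-fold higher, and TFAP2A and SNAI2 were 1.16-fold and 1.52-fold lower, each close to the threshold of the test. SNAI1 did not pass it. ZEB1 and SOX10 stood at the level of a few fragments, and TWIST1, PAX3 and MSX2 were listed in none of the 6 libraries.

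The libraries listed 15651 to 15754 symbols in knockdown and 16229 to 16288 in control. The files give no read counts. The step that 1 fragment would make in genes without introns put the depth at about 7000000 to 7600000 fragments in knockdown and 6440000 to 7220000 in control libraries. This is a rough estimate from 10 to 17 genes per library, read only where they implied 5000000 to 12000000 fragments. That these genes held 1 fragment each was not tested, and all fragment counts below rest on it. FOXD3 itself (Entrez 27022, hg19 chr1:63788730-63790797), the targeted forkhead gene, was not listed, 0.0749 and not listed in knockdown libraries 1 to 3, against 0.152, 0.291 and 0.134 FPKM in control libraries 1 to 3. These values correspond to 0 to 1.1 fragments in knockdown and 2.0 to 3.9 in control libraries; the groups did not overlap (p = 0.1 by an exact two-sided permutation, the smallest value that 3 libraries against 3 allow). Keratins and adhesion genes of epithelial cells were abundant in both groups, with KRT18 at 2663 ± 23.7 FPKM in knockdown and 2101 ± 128 in control and EPCAM at 159 ± 10.1 and 114 ± 2.35 (SD, n = 3 each). VIM and CDKN2A go against what is known of A549, which carries a homozygous CDKN2A deletion and makes much vimentin: CDKN2A averaged 128 ± 1.55 FPKM in knockdown and 154 ± 0.814 in control libraries, and VIM was below 5 FPKM in every library. The identity of the line was not tested further.

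**Figure D1:**
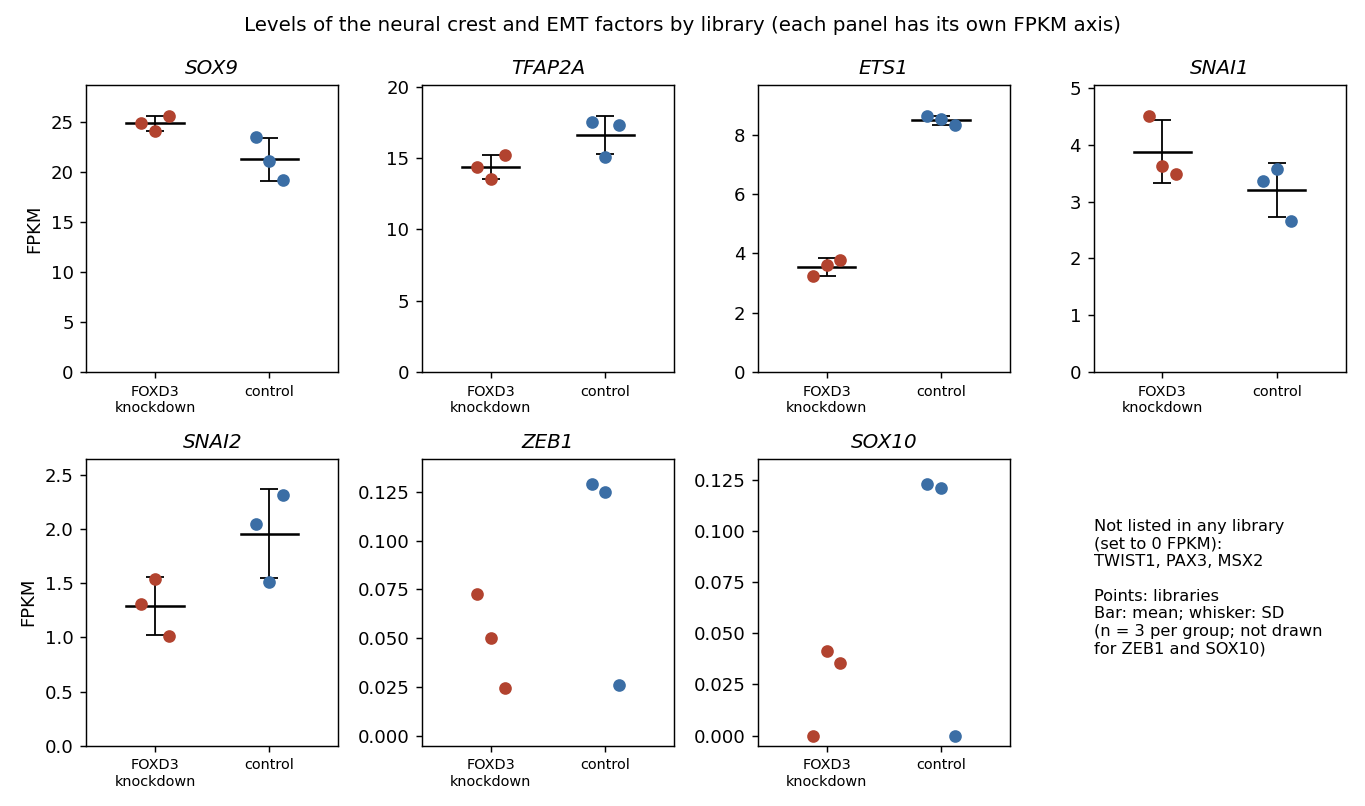
FPKM of the 7 listed factors in each library, knockdown on the left and control on the right, each panel with its own axis; points are libraries, bars are means and whiskers SD (n = 3 per group; none drawn for ZEB1 and SOX10). For ETS1 and SOX9 the groups do not overlap, while for TFAP2A, SNAI1 and SNAI2 at least 1 knockdown library lies within the control range or the reverse.

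Of the 10 factors, 7 were listed in at least 1 library and 6 in all 6. Listing alone is not detection, since the tables list values down to 2.07e-296 FPKM. Genes were tested where they averaged 0.5 FPKM or more across the libraries, and 5 of the 10 factors did: SOX9, TFAP2A, ETS1, SNAI1 and SNAI2. log2(FPKM + 1) was compared with limma, and a gene was called when its Benjamini-Hochberg adjusted p over all 13340 genes tested was under 0.05; changes are knockdown minus control on that scale, where low genes show less than their true fold. Of the 5, 1 was called higher and 3 lower. Over all genes tested 63.5% were called, 25.6% higher and 37.9% lower, so being called does not set these factors apart. The split of all calls was 3417 higher and 5050 lower as deposited and 4304 higher and 3909 lower with quantile normalization, which gave a median change of all genes of 0.03; the factors' split was then 2 higher and 1 lower, and with median scaling 1 and 1. The groups did not overlap for 2 of the 5, SOX9 above and ETS1 below, against 69.1% of all genes tested, 28.3% above and 40.8% below. The median change of the 5 was −0.20, and that of all genes tested −0.09.

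ETS1 (Entrez 2113, hg19 chr11:128328656-128457453) encodes the founding member of the ETS family of winged helix-turn-helix activators, which acts in the cranial neural crest of the chick, in endothelium, in lymphocytes and in invasive carcinoma cells. It stood at 3.22, 3.62 and 3.78 FPKM in knockdown libraries 1 to 3, against 8.62, 8.51 and 8.31 in control libraries 1 to 3. Every knockdown library was below every control library, and the spread within each group was small beside the gap. The log2 change was −1.06 (SE 0.077, 95% confidence interval −1.24 to −0.89, limma, Benjamini-Hochberg adjusted p = 1.19e-05), and ETS1 was called under all 15 alternative settings, with changes of −1.24 to −0.87. A fall at least as large was seen for 660 genes, 4.95% of those tested, and 5.73% of genes tested were called with a fall of at least 1, against 1.71% with a rise of that size. The values rest on an estimated 118 to 148 fragments per knockdown library and 282 to 309 per control library. Among the 5 factors that the authors' deposited table lists, ETS1 alone stands in their called subset, which holds 8.63% of the genes in that table. All genes in that subset have a false discovery rate of at most 0.00984 and an absolute log2 fold change of at least 1. Its share is therefore not comparable with the shares called here, which have no fold cut. The authors' deposited table gives it 3.5 FPKM in knockdown and 7.91 in control, a log2 fold change of −1.18 and a false discovery rate of 0.000722.

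SOX9 (Entrez 6662, hg19 chr17:70117161-70122560), an HMG-box factor of premigratory crest and cartilage that is also expressed in distal lung progenitors, was the most abundant of the 10. Knockdown libraries 1 to 3 had 24.9, 24.1 and 25.6 FPKM, and control libraries 1 to 3 had 23.5, 21.1 and 19.2. The groups did not overlap, but the lowest knockdown library and the highest control library were close together. The change was 0.22 (SE 0.075, 95% confidence interval 0.05 to 0.40, limma, Benjamini-Hochberg adjusted p = 0.0311). It was called in 9 of 15 alternatives, whose adjusted p ran from 0.00403 to 0.094; the call was lost without a filter on low genes (0.0508) and on leaving out knockdown library 1 (0.0782), 2 (0.0521) or 3 (0.094) or control library 2 (0.0709) or 3 (0.0912). The authors' deposited table gives 25.9 FPKM in knockdown and 20.2 in control with a false discovery rate of 0.256. Its relative SOX10 (Entrez 6663, hg19 chr22:38368319-38380539), which maintains crest progenitors and specifies glia and melanocytes, was not listed, 0.0411 and 0.0353 FPKM in knockdown libraries 1 to 3, against 0.123, 0.121 and not listed in control libraries 1 to 3. These are at most 2.5 estimated fragments in a library, the groups overlapped, and an exact two-sided permutation put p at 0.4. No difference in SOX10 was detectable at this depth.

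Among PAX3, MSX2 and TFAP2A, the border genes in the set followed here, only TFAP2A was listed. TFAP2A (Entrez 7020, hg19 chr6:10396916-10419797) encodes AP-2 alpha, a helix-span-helix factor of the neural plate border and of surface ectoderm. It had 14.4, 13.5 and 15.2 FPKM in knockdown libraries 1 to 3, against 17.5, 15.1 and 17.3 in control libraries 1 to 3. Knockdown library 3 lay just above control library 2, so the groups overlapped. The change was −0.20 (SE 0.075, 95% confidence interval −0.37 to −0.03, limma, Benjamini-Hochberg adjusted p = 0.0464), and TFAP2A was called in 7 of 15 alternatives. Scaling each library to the same median gave −0.11 with an adjusted p of 0.237, and quantile normalization gave −0.13 with 0.163. Leaving out knockdown library 1 or 2 or control library 1 or 3 also ended the call, with adjusted p of 0.102, 0.149, 0.108 and 0.129 in that order. The authors' deposited table gives 14.7 FPKM in knockdown and 15.7 in control with a false discovery rate of 0.841. PAX3, a paired box factor of the dorsal neural tube and of melanoblasts, and MSX2, a homeobox factor downstream of BMP signals, were listed in no library.

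The SNAIL pair had opposite signs of change. SNAI1 (Entrez 6615, hg19 chr20:48599513-48605420), the E-box repressor that starts EMT in many carcinoma models, had 4.51, 3.62 and 3.49 FPKM in knockdown libraries 1 to 3, against 3.36, 3.57 and 2.66 in control libraries 1 to 3. Knockdown library 1 was the highest of the 6 and control library 3 the lowest, while knockdown library 3 lay below control library 2. The change of 0.22 (SE 0.120, 95% confidence interval −0.06 to 0.49) did not pass (limma, Benjamini-Hochberg adjusted p = 0.149). It passed under 1 of 14 alternatives, quantile normalization, with a change of 0.47 and an adjusted p of 0.00966; over all 14 the adjusted p ran up to 0.423.

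SNAI2 (Entrez 6591, hg19 chr8:49830239-49833999), also called SLUG, marks premigratory and migrating crest in the chick. Its values were 1.31, 1.54 and 1.01 FPKM in knockdown libraries 1 to 3, against 2.05, 1.51 and 2.31 in control libraries 1 to 3. Control library 2 lay within the knockdown range and the other two control libraries above it. The change was −0.37 (SE 0.140, 95% confidence interval −0.69 to −0.05, limma, Benjamini-Hochberg adjusted p = 0.0477), called in 6 of 14 alternatives. Leaving out knockdown library 1 or 3 or control library 1 or 3 ended the call, with adjusted p of 0.0916, 0.152, 0.106 and 0.149 in that order, as did median scaling (0.0832), and quantile normalization brought the change to −0.08 (0.651). The estimate is 19 to 26 fragments in a knockdown and 24 to 40 in a control library. Neither SNAI1 nor SNAI2 stands in the authors' called subset. In their deposited table SNAI1 has 4.14 FPKM in knockdown and 3.1 in control with a false discovery rate of 0.457, and SNAI2 1.29 and 1.83 with 0.474.

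ZEB1 (Entrez 6935, hg19 chr10:31608101-31818742), a zinc finger and homeodomain repressor that holds carcinoma cells in a mesenchymal state, was close to the limit of detection. It was at 0.0727, 0.0504 and 0.0247 FPKM in knockdown libraries 1 to 3, against 0.129, 0.125 and 0.0259 in control libraries 1 to 3. That is 1.2 to 3.3 estimated fragments in a knockdown and 1.2 to 5.6 in a control library; the groups overlapped and an exact two-sided permutation put p at 0.3. No difference in ZEB1 was seen, with the same limits of depth and of the exact test as for SOX10. TWIST1, which acts with E proteins in cranial mesenchyme and in metastatic cells, was listed in no library. In order of mean level the control libraries had SOX9, TFAP2A, ETS1, SNAI1, SNAI2, ZEB1 and SOX10, and neighbours overlapped only for ZEB1 and SOX10. In knockdown libraries ETS1 stood below SNAI1, at 3.54 against 3.87 FPKM on average, with overlapping ranges, and ZEB1 and SOX10 overlapped there too. By share of symbols with a lower mean, ETS1 stood above 45.4% in knockdown and 58.1% in control, and SOX9 above 80.9% and 77.9%.

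**Figure D2:**
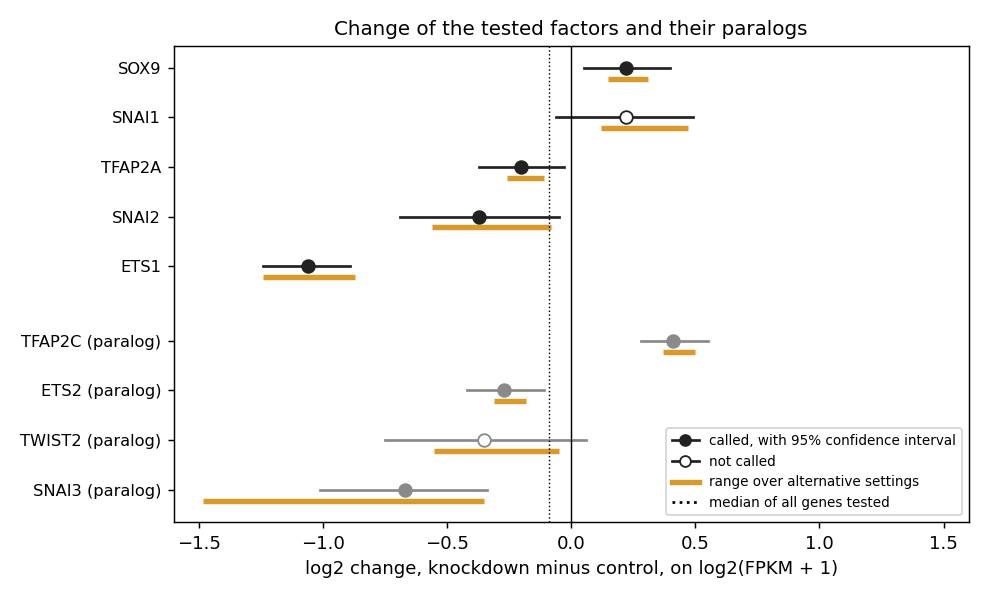
Change of each tested factor and of the tested paralogs, knockdown minus control on log2(FPKM + 1), with 95% confidence intervals (thin lines) and the range over the alternative settings (orange); filled points are called at an adjusted p under 0.05 and the dotted line is the median of all genes tested. ETS1 lies at −1.06, apart from the other 4 factors, which lie between −0.37 and 0.22.

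Closely related family members were compared next. Of 10 close paralogs, 7 were listed and 4 were tested. Of these, 1 was called higher and 2 lower (1 and 1 with median scaling or quantile normalization), against 25.6% and 37.9% of all genes tested. TFAP2C, the AP-2 gamma gene, had 22.5, 20.5 and 20.7 FPKM in knockdown libraries 1 to 3, against 15.9, 15.2 and 16.1 in control libraries 1 to 3. All knockdown libraries were above all control libraries, the opposite direction to TFAP2A, and the change was 0.41 (SE 0.059; by limma the Benjamini-Hochberg adjusted p was 0.000421, called in 15 of 15 alternatives). ETS2 fell by 0.27 (11.2 ± 0.386 FPKM in knockdown, 13.7 ± 0.945 in control, SD, n = 3 each, adjusted p = 0.0089 by limma), a call lost with median scaling (0.0544). SNAI3, a SNAIL gene of muscle and lymphoid cells in the mouse, was at 0.286, 0.316 and 0.399 FPKM in knockdown libraries 1 to 3 and at 1.51, 0.77 and 1.16 in control libraries 1 to 3. It passed the filter only through the control libraries (change −0.67, limma adjusted p = 0.004; 0.0712 with quantile normalization). TWIST2 was listed in all libraries, at 1.47 ± 0.18 FPKM in knockdown and 2.2 ± 0.742 in control (SD, n = 3 each), and was not called (−0.35, limma adjusted p = 0.117). ZEB2 was at no more than 0.244 FPKM in knockdown and 0.215 in control libraries. SOX8, PAX7 and TFAP2B were listed in no library.

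Within a library the ratio of 2 relatives does not depend on scaling to the total. TFAP2A over TFAP2C was 0.638, 0.659 and 0.734 in knockdown libraries 1 to 3, against 1.1, 0.999 and 1.08 in control libraries 1 to 3, so TFAP2C was the more abundant in each knockdown library and the pair was near equal in control. ETS1 over ETS2 was 0.278, 0.321 and 0.35 in knockdown libraries 1 to 3 and 0.585, 0.662 and 0.613 in control libraries 1 to 3. Neither ratio overlapped between groups; by exact two-sided permutation p was 0.1 for each, the smallest possible, and 0.2 after Benjamini-Hochberg adjustment over the 4 ratios compared. SNAI1 over SNAI2 was 3.43, 2.35 and 3.45 in knockdown libraries 1 to 3 and 1.64, 2.36 and 1.15 in control libraries 1 to 3. Knockdown library 2 and control library 2 were nearly equal, and the exact test gave p = 0.2. The remaining ratio, of the noncoding RNA ZEB1-AS1 over ZEB1, averaged 20.5 ± 6.07 in knockdown and 60.5 ± 62.5 in control (SD, n = 3 each). It overlapped between groups, the exact test gave p = 0.2, and it rests on the few fragments of ZEB1.

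**Figure D3:**
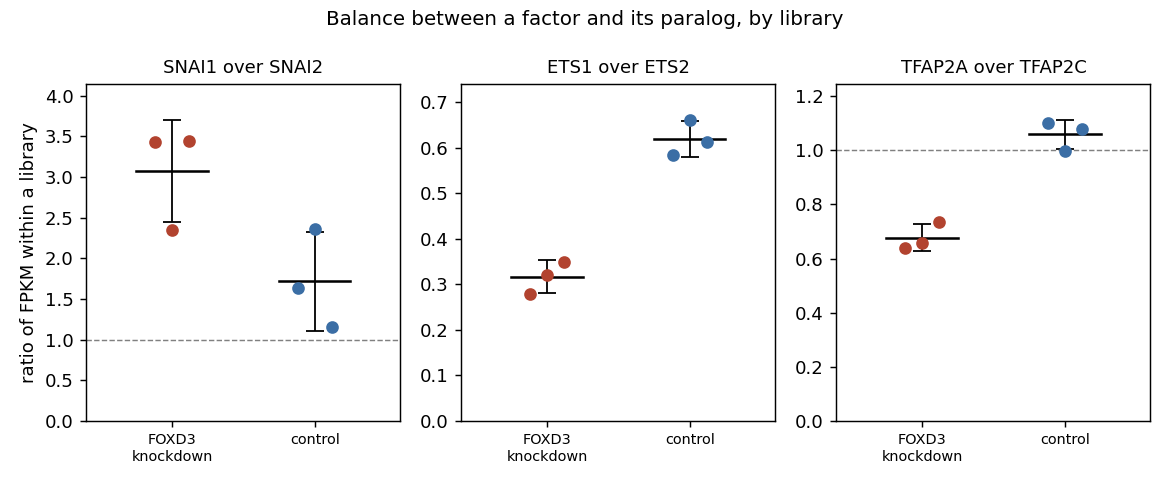
Ratio of FPKM within each library for 3 pairs of relatives, knockdown on the left and control on the right; points are libraries, bars are means and whiskers SD (n = 3 per group), and the dashed line marks a ratio of 1. TFAP2A over TFAP2C is 0.677 on average in knockdown and 1.06 in control, and ETS1 over ETS2 is 0.316 and 0.62, while SNAI1 over SNAI2 overlaps between the groups.

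Of 24 other neural crest transcription factors, FOXD3 among them, 16 were listed and 7 tested, 2 were called higher and 1 lower, against 25.6% and 37.9% of all genes tested, and the median change was −0.08 (0.23 with quantile normalization). ZIC2, a zinc finger factor of the dorsal neural tube, averaged 2.85 ± 0.298 FPKM in knockdown and 1.95 ± 0.138 in control libraries (SD, n = 3 each), a change of 0.38 (limma, Benjamini-Hochberg adjusted p = 0.0089). LMO4, a LIM-only cofactor that partners SNAI2 in avian and neuroblastoma cells, was 1.45-fold lower, at 8.35 ± 0.0176 FPKM against 12.1 ± 0.232 (change −0.49, limma adjusted p = 0.000146). The third call was TFAP2C. MITF, the melanocyte master regulator, averaged 11.6 ± 1.09 FPKM in knockdown and 10.3 ± 0.474 in control and was not called (limma adjusted p = 0.117). PAX7, ZIC1, TFAP2B, MYCN, SOX5, SOX8 and HAND2 were among those listed in no library. Among 14 products of crest derivatives, 9 were listed and 2 tested, both called lower, as were 37.9% of all genes tested. ERBB3, a neuregulin receptor of Schwann cells and of many carcinomas, averaged 19.7 ± 0.679 FPKM in knockdown and 25 ± 1.54 in control (change −0.32, limma adjusted p = 0.00202). PMEL, a melanosome protein, averaged 2.07 ± 0.369 and 3.23 ± 0.549 FPKM in knockdown and control (change −0.46, limma adjusted p = 0.0155), a call lost with quantile normalization (0.268), without knockdown library 1 (0.0563) and without control library 3 (0.0558).

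Of 15 other EMT transcription factors, 12 were listed and 11 tested, 1 was called higher and 3 lower, against 25.6% and 37.9% of all genes tested (1 and 2 with median scaling, 1 and 1 with quantile normalization), with a median of −0.15. KLF8, a Krüppel-like repressor of E-cadherin, had 2.8, 2.15 and 2.75 FPKM in knockdown libraries 1 to 3, against 4.9, 6.01 and 6.49 in control libraries 1 to 3. It was lower in every knockdown library, 2.26-fold on average (change −0.93, SE 0.119, limma, Benjamini-Hochberg adjusted p = 0.000237). TCF3, the E2A gene whose products pair with TWIST proteins, was higher, at 35.4 ± 0.284 FPKM in knockdown and 24.4 ± 1.22 in control (change 0.52, limma adjusted p = 6.35e-05). The other E protein gene TCF12 was lower at 8.59 ± 0.667 FPKM against 10.6 ± 1.16 (change −0.27, limma adjusted p = 0.0306), called in 8 of 15 alternatives and lost on leaving out knockdown library 1 (0.0754) or 2 (0.102) or control library 2 (0.0722) or 3 (0.101). SNAI3, which passed the filter only through the control libraries, makes up the third lower call of this list. HMGA2, an architectural factor that raises SNAI1 and TWIST1 in other cells, was abundant at 31.7 ± 2.4 FPKM in knockdown and 31.2 ± 1.16 in control and was not called (limma adjusted p = 0.792). GSC, FOXC2 and PRRX1 were listed in no library.

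The genes whose products work with the SNAIL, ZEB and TWIST repressors included more higher than lower calls: of 17 corepressors and partners, all tested, 10 were called higher and 1 lower, against 25.6% and 37.9% of all genes tested (12 and 1 with median scaling, 11 and 1 with quantile normalization), with a median of 0.29. EZH2, the methyltransferase of Polycomb complex PRC2, averaged 26.9 ± 1.4 FPKM in knockdown and 15.7 ± 1.03 in control libraries (SD, n = 3 each), a change of 0.74 (limma, Benjamini-Hochberg adjusted p = 3.3e-05). Its partner SUZ12 had 16.9 ± 1.14 against 12.1 ± 1.64 FPKM (change 0.45, limma adjusted p = 0.00454). PRMT5, the arginine methyltransferase that AJUBA brings to SNAI1, had 96.3 ± 2.33 against 63.2 ± 3.5 FPKM (change 0.60, limma adjusted p = 2.56e-05). AJUBA itself, a LIM protein of cell junctions, was the lower one, with 27.9 ± 0.998 FPKM in knockdown and 38.3 ± 3.87 in control (change −0.44, limma adjusted p = 0.00107).

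Of 13 ligases and kinases that set the stability of SNAIL-family proteins, all tested, 2 were called higher and 6 lower, with a median of −0.23. Calls in either direction were 8 of the 13, a share near the 63.5% of all genes tested. FBXL5, an F-box protein that turns SNAI1 over in the nucleus, was 1.99-fold lower at 6.02 ± 0.53 FPKM in knockdown against 12 ± 0.485 in control (SD, n = 3 each, change −0.89, limma, Benjamini-Hochberg adjusted p = 2.94e-05). BTRC, the F-box protein that recognises SNAI1 phosphorylated by GSK3B, had 7.01 ± 0.427 against 10.3 ± 0.638 FPKM (change −0.49, limma adjusted p = 0.0006). The kinases PAK1 and LATS2, which phosphorylate SNAI1 and hold it in the nucleus, had changes of −0.61 and −0.48. SNAIL proteins were not measured.

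Epithelial genes moved in both directions: of 27, all tested, 8 were called higher and 10 lower, with 63.5% of all genes tested called in either direction, and the median of −0.05 turned to 0.04 with median scaling, where 9 were higher and 7 lower. CDH1, E-cadherin, the best-known target of the E-box repressors, had 41.2, 40.9 and 41.9 FPKM in knockdown libraries 1 to 3, against 50.2, 46.5 and 47.9 in control libraries 1 to 3. The groups did not overlap and the knockdown libraries were lower by 1.16-fold (change −0.21, SE 0.047, limma, Benjamini-Hochberg adjusted p = 0.00406), which did not pass with median scaling (−0.13, 0.0641). RAB25, a small GTPase of epithelial recycling, was lower at 102 ± 5.97 FPKM in knockdown against 164 ± 6.21 in control (SD, n = 3 each, limma adjusted p = 1.8e-05). PKP3, a desmosomal plaque gene, was higher at 52.6 ± 3.22 against 31.3 ± 2.11 FPKM (change 0.73, limma adjusted p = 3.6e-05), as were KRT8, with 3203 ± 12.9 against 2059 ± 253 (change 0.64), and the splicing factor gene ESRP2, with 15.8 ± 0.288 against 10.6 ± 0.868 (change 0.54). The more abundant ESRP1 went the other way, with 62 ± 2.1 FPKM in knockdown and 82.5 ± 6.76 in control (change −0.40, limma adjusted p = 0.000744).

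Of 17 mesenchymal genes, 16 were listed and 10 tested, 1 was called higher and 7 lower, against 25.6% and 37.9% of all genes tested, and the median was −0.68 (−0.60 with median scaling, −0.54 with quantile normalization). VIM, the intermediate filament of mesenchymal cells, had 1.46, 0.959 and 1.08 FPKM in knockdown libraries 1 to 3, against 3.65, 4.25 and 3.49 in control libraries 1 to 3. Every knockdown library was below every control library, by 3.25-fold on average (change −1.15, SE 0.118, limma, Benjamini-Hochberg adjusted p = 7.08e-05), though both levels are low for this gene. CDH2, N-cadherin, had 2.63, 3.07 and 2.33 FPKM in knockdown libraries 1 to 3 against 4, 4.69 and 5.11 in control libraries 1 to 3 (change −0.61, limma adjusted p = 0.00169), again without overlap. FN1, fibronectin, averaged 303 ± 12.6 FPKM in knockdown and 749 ± 95.2 in control (SD, n = 3 each, change −1.30, limma adjusted p = 7.61e-06). COL5A1, a fibrillar collagen gene, had 3.89 ± 0.267 FPKM in knockdown and 8.81 ± 0.685 in control. S100A4 was the gene called higher (change 0.31).

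Markers of other cell types were low or moved as follows, and their part in these changes was not tested. The counts of calls below stand beside 25.6% called higher and 37.9% called lower over all genes tested. The 10 fibroblast markers, 8 of them listed, summed to 3.06 to 3.68 FPKM in knockdown and 3.72 to 4.63 in control libraries; DCN and LUM, which define fibroblasts, were not listed, and the 1 tested, COL1A1, was not called. The 10 endothelial markers, 8 listed, summed to 4.09 to 4.25 and 6.69 to 7.95 FPKM in knockdown and control, with ESAM and CDH5 both called lower and ERG and EMCN not listed. The 12 leukocyte markers, 10 listed, summed to 94.4 to 98.1 and 170 to 188 FPKM in knockdown and control, with all 4 tested called lower; the calls of CD68 (0.327 with median scaling) and of the endothelial CDH5 (0.364 with quantile normalization) did not hold under every setting. Most of that sum was the cytoskeletal gene LCP1, at 25.5 ± 1.85 FPKM in knockdown and 95.2 ± 6.89 in control (change −1.86), and the lysosomal gene CD68, at 66 ± 0.82 and 74 ± 4.74; PTPRC, which defines leukocytes, averaged 0.194 in knockdown and 0.227 in control, and MS4A1 and SPI1 were not listed. The 11 lung epithelial markers, 10 listed, summed to 7575 to 7672 FPKM in knockdown and 5752 to 6443 in control, nearly all of it keratins; 4 of the 7 tested were called higher and 2 lower (5 and 0 with median scaling, 5 and 1 with quantile normalization), with SCGB1A1 among the higher although it passed the filter only through the knockdown libraries. KRT7 averaged 1545 ± 8.35 FPKM in knockdown and 1709 ± 35.3 in control, and the surfactant gene SFTPB was not listed.

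**Figure D4:**
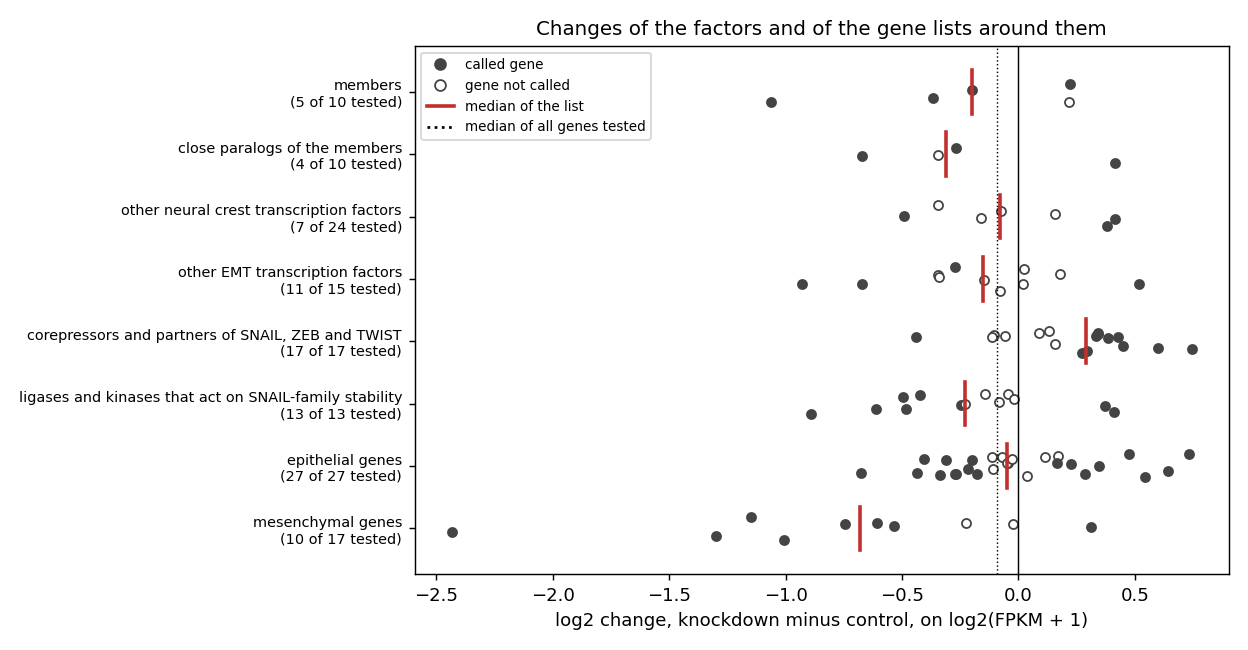
Change of every tested gene in the factors and in 7 gene lists around them, knockdown minus control on log2(FPKM + 1); filled points are called at an adjusted p under 0.05, red bars are list medians and the dotted line is the median of all genes tested, −0.09. The corepressors have a median of 0.29 and the mesenchymal genes one of −0.68, while the other lists have medians between −0.31 and −0.05.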

How the data were processed

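The authors deposited FPKM values per gene, in a table for each of the 3 knockdown and 3 control libraries, and a table of their own comparison, whose columns are log2 fold change, p-value and false discovery rate (q-value), per the file headers. The submitters' processing notes name build hg19 and the tools Bowtie, TopHat2 2.0.12, Cuffdiff and Cufflinks 2.0.2. Not given in the sources used here are the annotation, the strand setting and the read length. As the strand setting is not given, it is not known whether reads of overlapping genes were told apart.

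FPKM was summed over the rows of a symbol, and an unlisted symbol was set to 0, which can be a failed estimate. Genes averaging 0.5 FPKM or more were tested on log2(FPKM + 1) with limma 3.58.1 in R 4.3.3 (eBayes with trend, two-sided, Benjamini-Hochberg), with no covariate; FOXD3, ZEB1, SOX10 and the ratios were tested with the exact permutation test in SciPy 1.17.1. The procedure was run on simulated data in which few genes changed and no filter was used, unlike the data here. That run therefore does not bear on the number of genes called. Depth was estimated from intronless genes of at least 1500 bp in GENCODE 29, reading only values that imply 5000000 to 12000000 fragments, so the estimate cannot leave that window; single genes gave 5370000 to 10020000. Fragments per gene are estimates from that depth and transcript length.

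The factors and lists were chosen with earlier results of these data known. Named were the 10 factors, FOXD3, CDH1, CDH2, VIM, up to 4 called genes of each list with the largest change and an average of 1 FPKM or more in either group, and markers of at least 5 FPKM. CDKN2A, ZEB1-AS1, MIR205HG, ESRP1, the uncalled genes given with values and the low markers were named after their values were seen. Some genes that this rule selects are not reported here.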

Additional observations from a re-analysis of the deposited data

How the results depend on the processing

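Gene counts were recomputed under 15 alternatives: pseudocounts of 0.1 and 0.5, no filter, a filter at 5 FPKM, median scaling, quantile normalization, eBayes without trend or with robust estimation, the largest row of a symbol, and each library left out in turn. Genes that a filter at 5 FPKM or a smaller set of libraries removes have fewer, as given beside them, and the ratios were not recomputed. No called change of a named gene turned sign. The list median turned sign for the epithelial genes with median scaling (0.04) and for the other neural crest factors with quantile normalization (0.23). The number of the 10 factors called higher, 1 as reported, was 0 with no filter, 2 with quantile normalization and 0 to 1 with a library left out. The number called lower, 3 as reported, was 1 with median scaling, 1 with no filter, 1 with quantile normalization and 1 to 3 with a library left out; ETS1 was called in each. Over all genes, 3417 were called higher and 5050 lower, and the lower calls came to 3295 with a filter at 5 FPKM, where fewer genes are tested. Calls in the higher direction made up 40.4% of all calls as deposited, 49% with median scaling and 52.4% with quantile normalization, which moved the median change of all genes tested to −0.01 and 0.03, against −0.09 as deposited. Differences for FOXD3, ZEB1 and SOX10 kept their sign under both of their alternatives but rest on a few fragments. Depth limits them, and so does the exact test, which cannot go below p = 0.1 with 3 libraries against 3. No paired analysis was possible because the labels give no replicate numbers; the numbers 1 to 3 used here only name the libraries and pair none.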

Other observations

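ZEB1-AS1, a long noncoding RNA whose gene lies head to head with ZEB1 (Entrez 220930, hg19 chr10:31605457-31608024, 76 bases from ZEB1), was well above ZEB1 itself in every library. It had 1.19, 0.896 and 0.679 FPKM in knockdown libraries 1 to 3, against 2.67, 3.53 and 3.44 in control libraries 1 to 3. All knockdown libraries were below all control libraries, and the change was −1.14 (SE 0.134 by limma, Benjamini-Hochberg adjusted p = 0.00015, called in 14 of 14 alternatives). ZEB1-AS1 was chosen after its values were seen. Of all genes tested, 40.8% lay lower without overlap and 5.73% were called with a fall of at least 1. RefSeq (GRCh38.p14) has 7 ZEB1 and 2 ZEB1-AS1 windows around start sites. The ZEB1-AS1 start at position 31320447, on the minus strand, lies inside ZEB1, so some transcripts of these genes overlap on the genome. No strand setting is given, so it is not known whether reads from such a stretch were assigned to the right gene. Shown is the ZEB1 window that shares most bases with a ZEB1-AS1 window, from the pair whose start sites lie 121 bases apart. It runs from 250 bases before to 50 after the ZEB1 start at position 31319216 (GRCh38.p14, chr10:31318966-31319265, plus strand) and shares 220 bases with the corresponding ZEB1-AS1 window; capitals mark the E-box CACCTG on either strand (CAGGTG on the other) and the ETS core CCGGAA on either strand (TTCCGG on the other).
ZEB1 window: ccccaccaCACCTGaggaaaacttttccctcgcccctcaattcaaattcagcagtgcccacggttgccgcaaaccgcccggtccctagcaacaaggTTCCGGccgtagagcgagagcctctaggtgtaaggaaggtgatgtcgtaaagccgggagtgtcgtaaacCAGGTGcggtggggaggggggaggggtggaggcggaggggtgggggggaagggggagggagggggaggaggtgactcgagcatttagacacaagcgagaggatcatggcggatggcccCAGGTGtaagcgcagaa
It holds 3 E-boxes, the site type that SNAIL and ZEB proteins read, and 1 ETS core, with no overlap between them, and 0 matches to the forkhead core TGTTTAC or GTAAACA. The other 6 ZEB1 windows hold 0 or 1 E-boxes each, and 1 of them, around the start at position 31321660, holds 2 forkhead cores. Of 35116 RefSeq promoter windows of the same length, 20.6% hold the E-box, 17.2% the ETS core and 3.42% the forkhead core. Windows were at hand for 4 of the 10 factors, ZEB1, TFAP2A, PAX3 and MSX2. These matches describe letters and show no binding.

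MIR205HG (Entrez 642587, hg19 chr1:209602168-209605892), the host transcript of miR-205, averaged 80.9 ± 5.56 FPKM in knockdown and 216 ± 20 in control libraries (SD, n = 3 each). The groups did not overlap, and the change was −1.41 (SE 0.074 by limma, Benjamini-Hochberg adjusted p = 3.02e-06, called in 15 of 15 alternatives). MIR205HG too was chosen after its values were seen, and the shares of all genes given for ZEB1-AS1 apply here as well. Its microRNA is known to repress ZEB1 and ZEB2. The mature RNA was not measured here; its sequence in RefSeq (GRCh38.p14, chr1:209432166-209432187, plus strand), with the seed, bases 2 to 8, in capitals, is shown beside the low ZEB1 and ZEB2 values of both groups, and a link between them was not tested.
hsa-miR-205-5p: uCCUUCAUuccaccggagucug

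SCGB1A1, the secretoglobin of airway club cells, had 1.72, 2.24 and 0.844 FPKM in knockdown libraries 1 to 3 and was not listed in the control libraries.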
